A study of Arabidopsis thaliana with 12 samples.

Results

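The response of Atg3bp1 seedlings to Pst hrcC- was read from 6 RNA-seq libraries, 3 of mock-treated and 3 of bacteria-treated plants, out of 12 libraries in the study. They were picked by their labels, genotype Atg3bp1 with treatment mock or hrcC, and no measured value entered the choice. Arabidopsis thaliana seedlings of the ecotype Columbia-0 were grown for 14 d on half-strength MS medium, and RNA of whole seedlings was taken 24 h after Pst DC3000 hrcC- had been applied or after mock treatment. The other 6 libraries, WT mock and WT hrcC, are of the same ecotype and age. The mutant is a single T-DNA insertion line, named Atg3bp1-1 in the study, and each library is described there as an independent biological replicate. Levels are given as FPKM, sequenced fragments of a gene scaled by transcript length and by library size. The values carry no read counts, so the depth is unknown.

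Pst DC3000 hrcC- is a Pseudomonas syringae strain that cannot inject effector proteins through the type III secretion system. Plants still perceive its surface molecules, such as flagellin, through receptor kinases, and the ensuing reaction is called microbe-triggered immunity. Salicylic acid (SA) and jasmonate (JA) are the main defence hormones of Arabidopsis. JA is made from plastid fatty acids by lipoxygenases, allene oxide synthase and allene oxide cyclases. Its bioactive isoleucine conjugate removes JAZ repressors from MYC transcription factors, which switch on wound and herbivore defence genes. Together with ethylene, JA induces plant defensins through ERF transcription factors. Pst DC3000 strains also produce coronatine, a toxin that mimics the JA conjugate. Defence and growth draw on the same resources, so genes of cell wall loosening and nutrient uptake are often examined beside defence genes.

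The targeted gene was examined first. AtG3BP1 (AT5G48650), which encodes an RNA-binding protein related to human G3BP1, was at 16.6, 13.6 and 11.4 FPKM in the libraries labelled Atg3bp1 mock. It was at 18.4, 16 and 12.5 FPKM in those labelled Atg3bp1 hrcC, and at no more than 0.426 FPKM in each of the 6 libraries labelled WT. The level of the targeted gene therefore went against the labels, and the groups are called here only by their labels, as libraries labelled Atg3bp1 or WT. The comparison of treated with mock plants lies within 1 label. AtG3BP1 itself did not pass the test between treatments (log2 fold change 0.19 with an SE of 0.17, adjusted p = 0.70, limma). The FPKM of the 6 libraries summed to between 428556 and 488206, and the log2 values of libraries of 1 group correlated across genes with a Pearson's r of 0.949 to 0.970. A single locus, AT2G01021, took 11.4% to 12.6% of the sum in mock libraries and 5.73%, 20.3% and 31.5% in hrcC libraries 1, 2 and 3. Its part in the results was not tested. Mesophyll markers, RBCS1A, LHCB1.1, LHCB2.1 and RCA, summed to between 14633 and 22632 FPKM in these libraries, and all 4 seed storage markers together stayed between 2.01 and 4.07 FPKM.

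After Pst hrcC-, 441 genes were higher and 95 were lower by at least 2-fold in the libraries labelled Atg3bp1 (adjusted p of at most 0.05, limma). These were 2.57% and 0.554% of the 17158 tested genes, and they are the background for counts at 2-fold. Without the fold threshold, 518 genes rose and 169 fell, 3.02% and 0.985% of those tested, and this is the background for the gene lists that follow. Rose and fell are written only of genes past this test. Levels are the deposited FPKM of mock libraries 1 to 3 and then of treated libraries 1 to 3, and folds are on the log2(FPKM + 1) scale after scaling. Increases were also larger. The median log2 fold change was 1.69 over the 441 higher genes and -1.31 over the 95 lower genes, and 61 genes rose over 8-fold against 1 that fell as far. The genes called higher were at low levels in mock plants, with a median of 3.52 FPKM, and reached a median of 15.4 FPKM. The genes called lower went from a median of 10.8 to 3.19 FPKM. Across all tested genes the median log2 fold change was -0.07, and 40.0% of genes were above 0. In every called gene the 3 hrcC libraries lay outside the range of the 3 mock libraries. Such a gap without any test was seen upward in 9.98% and downward in 17.1% of tested genes. The count of falling genes depended on single libraries. It was 52 without Atg3bp1 mock replicate 1, 39 without Atg3bp1 mock replicate 2, 44 without Atg3bp1 hrcC replicate 1 and 44 without Atg3bp1 hrcC replicate 3. The count of rising genes lay between 305 and 485 in the same kind of fit. The fit was therefore repeated without each of the 12 libraries for every list. In the counts given with a library left out, mock 1 to 3 and hrcC 1 to 3 are the libraries labelled Atg3bp1. Over the 12 fits the number of risers stayed between 9 and 11 for JA synthesis, 9 and 10 for JAZ repressors, 5 and 6 for JA catabolism, 4 and 5 for tryptophan synthesis and 5 and 7 for ER bodies, and at 8 for the MYC output list. Lists with a count above 0 that moved by over 1.5 times are given with those counts. Where 1 library is named with the lost call of a gene, its removal gave the highest adjusted p. Other removals could lose the call as well.

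**Figure D1:**
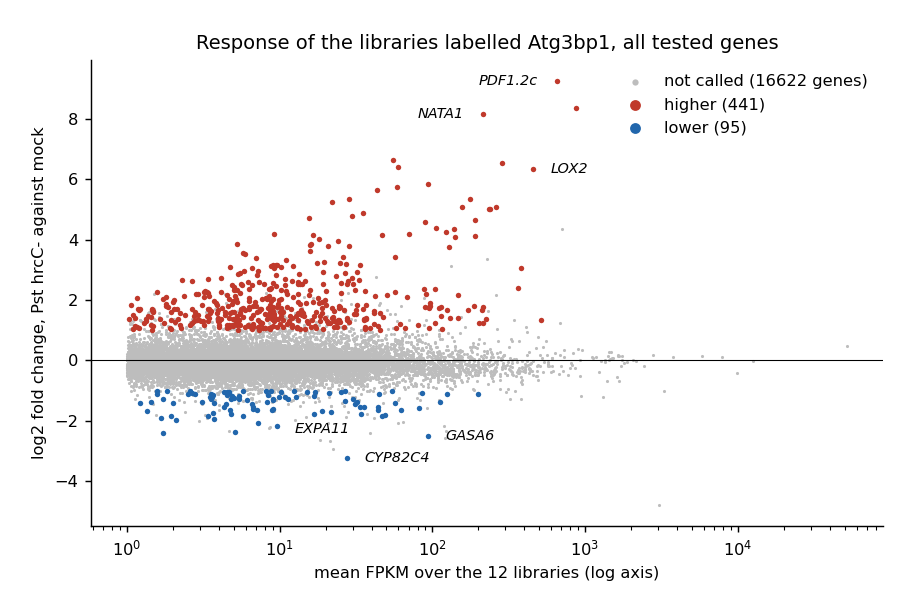
Log2 fold change between Pst hrcC- and mock in the libraries labelled Atg3bp1 (vertical axis) against the mean FPKM over the 12 libraries (horizontal, log axis), with 1 point for each of the 17158 tested genes. The 441 genes called higher (red) reach a log2 fold change of 9.26 (PDF1.2c), whereas the 95 called lower (blue) have a median of -1.31.

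JA synthesis rose almost as a whole. Of 13 tested genes of the pathway, 11 rose and none fell, and their median log2 fold change was 2.0. LOX2, the plastid lipoxygenase that starts the pathway, was at 15.6, 11.8 and 6.64 FPKM in mock libraries and at 1066, 945 and 782 FPKM after Pst hrcC-. The groups were far apart, and the change was 80.8-fold (log2 6.34, SE 0.34, adjusted p = 4.6e-07). AOS, the allene oxide synthase of the next step, was at 20.4, 17.4 and 19.1 FPKM before and 417, 317 and 282 FPKM after treatment. The allene oxide cyclase genes AOC1, AOC2 and AOC3, which lie side by side on chromosome 3 (9403779 to 9411090, TAIR10.1), rose together with log2 fold changes of 5.08, 5.02 and 1.68. AOC1 went from 10.9, 5.82 and 9.24 FPKM to 379, 295 and 265 FPKM, and the fourth cyclase gene, AOC4, rose by 1.09. The peroxisomal enzymes followed. OPR3, the reductase of oxophytodienoate, rose 9.16-fold, OPCL1, which activates the precursor, 6.12-fold, and ACX1, an acyl-CoA oxidase of the side-chain shortening, 2.42-fold. The lipoxygenase genes LOX4 and LOX3 were low in every library. LOX4 rose from 0.209 to 0.349 FPKM to 3.58 to 4.26 FPKM and LOX3 from 0.404 to 0.589 FPKM to 3.15 to 4.55 FPKM. The calls of LOX3 and AOC4 were lost without single libraries (adjusted p up to 0.102 without Atg3bp1 hrcC replicate 1 and up to 0.121 without Atg3bp1 mock replicate 2). The 6 libraries were taken from whole seedlings, so that more RNA per cell and more cells with that RNA cannot be told apart, here and for every gene below.

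The repressors and the outputs of JA signalling rose as well. Of 11 tested JAZ genes, 10 rose, with a median log2 fold change of 2.61. JAZ1 was at 5.69, 3.82 and 2.86 FPKM in mock libraries and 44.7, 47.7 and 40.02 FPKM in treated ones. JAZ9, JAZ5 and JAZ8 followed with log2 fold changes of 3.17, 3.08 and 2.71, and JAZ12 and JAZ3 were the smallest of the calls at 1.28 and 1.41. The JAZ3 call was lost in 4 of the 12 fits that left out 1 library (adjusted p up to 0.116, without Atg3bp1 hrcC replicate 1). The repressors thus rose beside MYC2, the transcription factor they hold back, which went from 10.7, 5.76 and 7.51 FPKM to 60.6, 56.7 and 43.8 FPKM (log2 2.67, SE 0.29, adjusted p = 1.8e-04). Every tested gene of the MYC output list rose, 8 of 8, with a median of 4.69. NATA1, an acetyltransferase that makes N-acetylornithine, was near the floor in mock libraries at 0.758, 1.24 and 0.396 FPKM. It reached 643, 434 and 388 FPKM, and no gene outside the defensins changed more (log2 8.15, SE 0.26, adjusted p = 1.3e-08). CORI3, a C-S lyase first found as a coronatine-induced gene, rose 57.6-fold, and the vegetative storage proteins VSP2 and VSP1 rose 32.5-fold and 20.6-fold. CLH1, a chlorophyllase, rose from 4.94 to 7.97 FPKM to 238 to 347 FPKM. TAT3, a tyrosine aminotransferase, was at 0.0482, 0.0416 and 0 FPKM in mock and 11.6, 19.4 and 9.78 FPKM in treated libraries. TPS04, a terpene synthase that makes the volatile geranyllinalool, was listed at 0 in mock libraries 1 and 3 and reached 6.39, 3.43 and 2.05 FPKM. ARGAH2, an arginase outside the list that was named after its values had been seen, went from 12.8, 11.6 and 11.6 FPKM to 355, 349 and 264 FPKM. Arginase releases ornithine, the substrate of NATA1.

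Genes that inactivate JA rose at the same time. Of 7 tested, 5 rose and none fell, with a median log2 fold change of 2.13. JRG21, a JA oxidase annotated as jasmonate-regulated gene 21, went from 0.176, 0.229 and 0.36 FPKM to 165, 91.3 and 111 FPKM. ST2A, which sulfonates hydroxylated JA, rose 9.59-fold. The amidohydrolases ILL6 and IAR3, which cleave amino acid conjugates of JA and auxin, rose 5.46-fold and 4.39-fold, and CYP94B1, which oxidizes the isoleucine conjugate, 2.7-fold. FAMT (AT3G44860), annotated as farnesoic acid carboxyl-O-methyltransferase, was among the leading genes at 0.282, 0.288 and 0.764 FPKM in mock and 143, 96 and 111 FPKM in treated libraries.

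The plant defensins of the joint JA and ethylene branch gave the steepest increases. PDF1.2c was at 0.741, 2.38 and 0.521 FPKM in mock libraries and at 1709.6, 654 and 1599 FPKM after Pst hrcC- (log2 9.26, SE 0.74, adjusted p = 1.3e-05). Its neighbour on chromosome 5, PDF1.2, went from 3.75, 5.42 and 2.83 FPKM to 2479.8, 727 and 2138 FPKM. Replicate 2 of the treated group was the lowest in both and was still far above every mock library. PDF1.3 and PDF1.2b, which adjoin each other on chromosome 2, rose with log2 fold changes of 6.56 and 5.74. These genes are nearly identical in sequence, and a read that matched several of them could have been counted for any, so their sum is surer than the share of each. PDF1.1, a member of lower level, rose by 1.66 on the log2 scale. Its call was lost without Atg3bp1 mock replicate 1 or 3 (adjusted p up to 0.0527, without replicate 3). In all, 6 of 9 tested genes of this branch rose. The risers were 4 without hrcC 1 or mock 3, and at most 8 with 1 library left out. HEL, a hevein-like antifungal protein known as PR4, rose 2.62-fold. Its call was lost in 4 of the 12 fits that left out 1 library (adjusted p up to 0.0906, without Atg3bp1 mock replicate 3). ORA59, the ERF factor that drives PDF1.2, was at 1.75, 2.45 and 2.23 FPKM in mock and 14.2, 6.75 and 6.19 FPKM in treated libraries. The difference did not pass the test (log2 1.64, SE 0.50, adjusted p = 0.11).

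**Figure D2:**
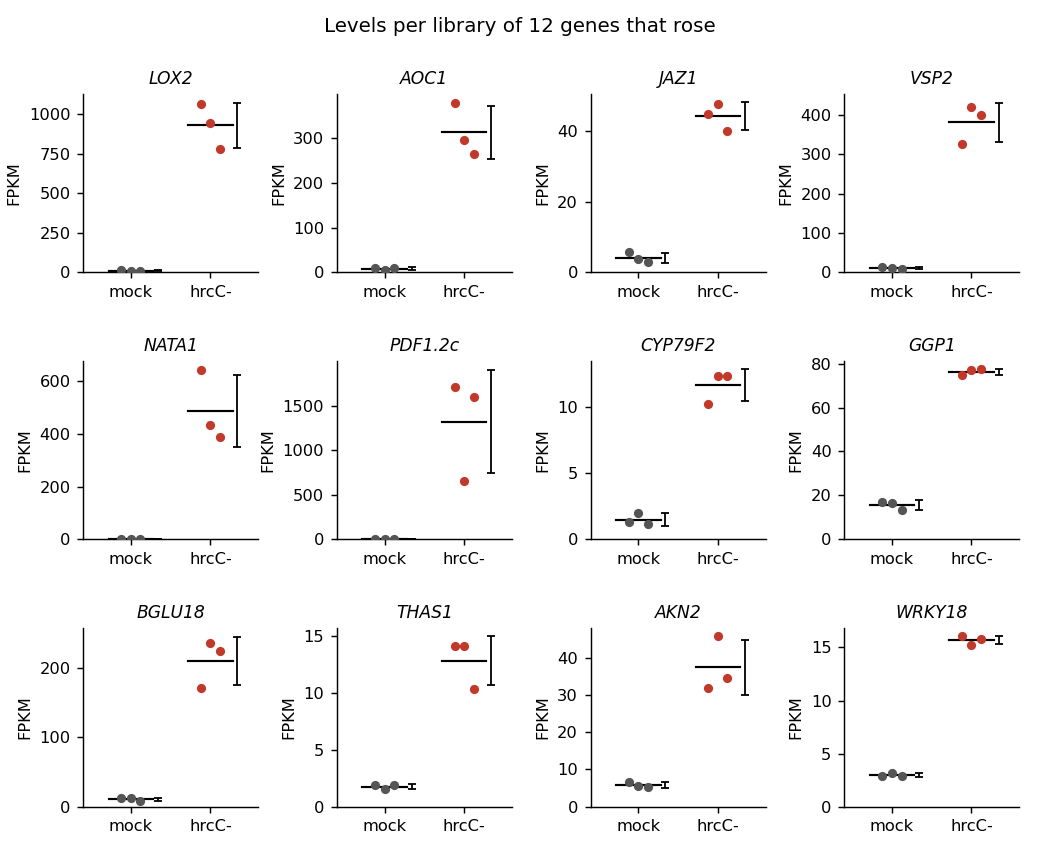
FPKM of 12 rising genes in each library labelled Atg3bp1 (points, mock grey and Pst hrcC- red), with the group mean (line) and its SD to the right (n = 3). All treated libraries lie above all mock libraries in each panel. The lowest treated PDF1.2c library, at 654 FPKM, is replicate 2.

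The starts of the leading genes were searched for short motifs that the transcription factors named above are known to bind. The window was 300 bases of the TAIR10.1 genome (RefSeq), from 250 bases before the annotated gene start to 50 bases after it, and both strands were read. The motifs were the G-box CACGTG and its variant AACGTG, which MYC factors bind, the GCC box GCCGCC of ERF factors, and the W-box of WRKY factors as TTGACC or TTGACT. The G-box and this variant differ in the first base, so a given stretch counted as one or the other. The starts of 3 rising genes and of the falling gene GASA6 are shown, on the strand of the gene, with matches in capitals. They are examples and do not stand for all called genes, whose shares are given below.
NATA1: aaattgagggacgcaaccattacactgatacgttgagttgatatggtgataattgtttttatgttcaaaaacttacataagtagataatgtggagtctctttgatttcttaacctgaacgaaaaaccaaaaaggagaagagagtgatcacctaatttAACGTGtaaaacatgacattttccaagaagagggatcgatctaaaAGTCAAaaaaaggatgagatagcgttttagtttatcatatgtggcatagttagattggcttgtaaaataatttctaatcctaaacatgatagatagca
AOC1: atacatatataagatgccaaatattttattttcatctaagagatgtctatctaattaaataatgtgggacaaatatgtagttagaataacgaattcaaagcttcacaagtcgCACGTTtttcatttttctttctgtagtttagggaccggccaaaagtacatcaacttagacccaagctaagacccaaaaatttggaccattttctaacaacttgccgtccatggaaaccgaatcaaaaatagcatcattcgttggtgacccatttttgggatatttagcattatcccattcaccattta
PDF1.2: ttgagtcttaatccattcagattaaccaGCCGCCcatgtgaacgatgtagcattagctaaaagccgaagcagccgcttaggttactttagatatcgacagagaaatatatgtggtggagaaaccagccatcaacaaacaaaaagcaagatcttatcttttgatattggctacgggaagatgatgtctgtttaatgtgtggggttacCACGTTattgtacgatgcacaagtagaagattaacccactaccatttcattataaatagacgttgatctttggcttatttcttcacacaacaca
GASA6: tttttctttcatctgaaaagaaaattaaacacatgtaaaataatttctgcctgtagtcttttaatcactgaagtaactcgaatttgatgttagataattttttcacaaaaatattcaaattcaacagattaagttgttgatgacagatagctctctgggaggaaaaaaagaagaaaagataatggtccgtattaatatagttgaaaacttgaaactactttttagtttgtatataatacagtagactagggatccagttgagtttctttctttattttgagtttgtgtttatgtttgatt
The NATA1 window lies at chr2:16297860-16298159 on the plus strand. It holds AACGTG at position -93, counted from the gene start, and a W-box on the opposite strand at -48. The AOC1 window, at chr3:9403529-9403828 on the plus strand, holds AACGTG on the opposite strand at -138. The PDF1.2 window, at chr5:17907589-17907888 on the minus strand, holds a GCC box at -222 and AACGTG on the opposite strand at -44. No searched motif was found in the GASA6 window, at chr1:28052780-28053079 on the plus strand.

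The share of windows with each motif was counted in rising, falling and all tested genes, with no test. AACGTG was present in 26.7% of 439 windows of genes higher at 2-fold, in 4.21% of the 95 windows of lower genes and in 9.05% of the 16991 windows of all tested genes. It was present in 12 of 34 rising JA genes of the synthesis, JAZ, catabolism and MYC output lists. The highest share was found among rising genes of glucosinolate and tryptophan synthesis, with 10 of 20. CACGTG was in 18.0% of the higher, 4.21% of the lower and 8.90% of all windows. The GCC box was rare, in 3.87% of higher windows against 2.64% of all, and in none of the 95 lower windows. The W-box was about as frequent in higher (34.6%) as in lower (37.9%) and in all windows (32.8%). These shares describe letters in a window and do not show that a factor was bound.

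Glucosinolate synthesis, which makes the sulfur-rich defence compounds of the cabbage family, was the next large group. Of 18 tested genes of the methionine-derived, or aliphatic, branch, 11 rose and none fell, with a median of 1.75. The chain elongation enzymes BCAT4, MAM1, MAM3 and IMD1 had log2 fold changes of 2.79, 2.0, 1.65 and 1.85. BCAT4, the aminotransferase that opens this branch, was at 3.43, 3.87 and 2.72 FPKM in mock and 21.9, 29 and 34.2 FPKM in treated libraries. The core enzymes CYP79F1 and CYP79F2, neighbours on chromosome 1, rose 7.47-fold and 5.29-fold, and GGP1, a gamma-glutamyl peptidase, 4.79-fold. GGP1 was evenly high in treated libraries, at 74.8, 76.9 and 77.3 FPKM against 17.2, 16.5 and 13.2 FPKM. The number of risers fell to 7 without hrcC 1 and to 6 without any one of the other libraries labelled Atg3bp1. CYP79F1 lost its call when libraries were left out (adjusted p up to 0.158, without Atg3bp1 hrcC replicate 3), and so did GSTF11 (log2 2.53, adjusted p up to 0.107, without Atg3bp1 hrcC replicate 3).

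In the tryptophan-derived, or indole, branch 5 of 12 tested genes rose. They were CYP79B2 and CYP79B3, CYP83B1, SUR1 and SOT16, given here in the order in which they act on the way from tryptophan. CYP83B1 went from 51, 68.6 and 42.5 FPKM to 170.5, 182 and 186 FPKM (log2 1.78, SE 0.34, adjusted p = 0.011). The calls of this branch were weak. Each was lost in at least 2 of the fits that left out 1 library, and the number of risers was 0 without hrcC 3 or mock 3, 1 without mock 2, 2 without hrcC 1, hrcC 2 or mock 1 and 3 without WT hrcC 3. CYP79B2 reached an adjusted p of 0.147 without Atg3bp1 mock replicate 3. MYB51, a regulator of this branch, was at 2.52, 3.27 and 2.18 FPKM in mock and 4.77, 3.52 and 5.83 FPKM in treated libraries and did not pass (log2 0.67, SE 0.34, adjusted p = 0.39). Upstream, 4 of 8 tested genes of tryptophan synthesis rose. ASA1, the anthranilate synthase subunit that controls the pathway, went from 6.54, 6.65 and 4.63 FPKM to 28.2, 24.2 and 28.4 FPKM, and TRP1 (AT5G17990), ASB1 and TSB1 had log2 fold changes of 1.73, 1.37 and 1.12. Camalexin, the other tryptophan-derived defence compound, showed no call among 3 tested genes. CYP71A12 was at 11, 15.5 and 3.36 FPKM in mock and 8.31, 23 and 12.3 FPKM in treated libraries, so that the groups overlapped. The other 2 of 3 members were higher in every treated library than in any mock library, as were 9.98% of tested genes. PAD3, which forms camalexin, was at 3.33, 2.95 and 0.681 FPKM in mock and 6.66, 5.59 and 6.19 FPKM in treated libraries (log2 1.27, SE 0.34, adjusted p = 0.066), and CYP71A13 had a log2 fold change of 1.46 (adjusted p = 0.22). The median of the list was 1.27.

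Sulfate activation, which supplies the sulfate donor of glucosinolates, was grouped after the values had been seen, and its counts are a description. Of 12 tested genes of sulfate activation, vacuolar sulfate export and glutathione synthesis, 9 rose. AKN2 and APK, the kinases that make the activated donor, had log2 fold changes of 2.54 and 1.94, and AKN2 went from 6.57, 5.53 and 5.15 FPKM to 31.9, 46 and 34.7 FPKM. APS1, the main ATP sulfurylase, was at 59.97, 62.1 and 54 FPKM in mock and 179, 165 and 135 FPKM in treated libraries, and the vacuolar exporter SULTR4;1 rose by 1.47 on the log2 scale. HL and SAL1, annotated as phosphatases that remove the by-product of sulfation, rose 2.87-fold and 2.14-fold. None of 6 tested genes of sulfate uptake and reduction passed, although 4 of the 6 had log2 fold changes above 0. The median of this list was 0.47, with a range from -0.69 to 1.68. APR2, the sulfate reductase of the competing branch, was the lowest of the 6. It was at 13.2, 15.1 and 11.4 FPKM in mock and 8.53, 8.85 and 5.77 FPKM in treated libraries (log2 -0.69, SE 0.58, adjusted p = 0.67).

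ER bodies are compartments of Brassicaceae cells that store beta-glucosidases, which activate defence compounds when a cell is broken. Of 8 tested genes, 6 rose. BGLU18, the glucosidase of wound-inducible ER bodies, went from 11.8, 11.6 and 7.85 FPKM to 172, 237 and 225 FPKM (log2 4.26, SE 0.33, adjusted p = 1.1e-05). JAL23, a jacalin-related lectin of the same complexes, was at 0.614, 0.25 and 0.156 FPKM in mock libraries and at 50.9, 54.9 and 46.4 FPKM after treatment. NAI1, the transcription factor of ER body formation, rose 2.14-fold, and BGLU22 rose 4.51-fold. PYK10, the abundant root glucosidase, changed least of the called members, from 319, 403 and 346 FPKM to 535, 741 and 538 FPKM. Its call was lost in 8 of the 12 fits that left out 1 library (adjusted p up to 0.187, without Atg3bp1 mock replicate 1). The lectins as a family, grouped after the values had been seen, rose with 8 of 18 tested members, and with 5 without hrcC 1, hrcC 2, mock 2 or mock 3. Named after their values had been seen, and counted apart from these lectins, were MBP1 and ESP. MBP1, a myrosinase-binding protein, went from 1.48, 0.769 and 0.777 FPKM to 56, 58.2 and 40.5 FPKM. ESP, the epithiospecifier protein that steers glucosinolate breakdown towards nitriles, rose from 0.882, 0.644 and 0.89 FPKM to 7.26, 8.0 and 5.25 FPKM. A lectin that moved the other way was AT1G52060, a mannose-binding lectin, which fell from 2.82, 4.48 and 3.24 FPKM to 0.635, 0.624 and 0.849 FPKM. The family had 1 faller with all libraries and 1 to 2 with 1 library left out.

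Further rising genes shared enzymes or positions. In lists drawn up after the values had been seen, DHAR1 and MDHAR, which recycle the antioxidant ascorbate, rose 5.3-fold and 3.42-fold, and VTC5 and CYT1, which act in its synthesis, 2.7-fold and 2.09-fold. The CYT1 call was lost without any one of the libraries labelled Atg3bp1 (adjusted p up to 0.0889, without Atg3bp1 mock replicate 2). The 4 genes of the thalianol cluster, a block on chromosome 5 (19428888 to 19461706, TAIR10.1) that makes a root triterpene, all rose. They were the oxidosqualene cyclase THAS1, the P450 genes CYP708A2 and CYP705A5 and AT5G47980, with log2 fold changes of 2.36, 1.94, 2.31 and 1.7. THAS1 was at 1.88, 1.54 and 1.85 FPKM in mock and 14.1, 14.1 and 10.3 FPKM in treated libraries. Of the 441 genes called higher, 81 (18.4%) were directly beside another called higher, in 35 runs of 2 to 5 genes. Of the 95 lower genes, 6 (6.32%) were beside another lower gene. A larger set holds more neighbours by its size alone, and the share for random genes was not computed, so these shares are not compared. The longest run lies on chromosome 1 (20158589 to 20180566) and holds ESP beside AT1G54010, AT1G54020, MVP1 and AT1G54050. AT1G54020, a GDSL lipase, went from 0.0933, 0.0643 and 0.114 FPKM to 13.1, 10.4 and 9.93 FPKM. Tandem copies can share reads, so neighbours are not independent of each other. Proteins annotated as MATE efflux carriers rose in 9 of 31 cases, MD-2-related lipid recognition proteins in 7 of 8, and tau and phi glutathione transferases, which detoxify by conjugation, in 6 of 36. Without hrcC 1 there were 5 rising MATE genes. Without hrcC 1, hrcC 3 or mock 1 there were 4 of the MD-2 group. The transferases had 1 riser without mock 3, 2 without mock 2 or any hrcC library, and 10 without WT mock 1. These families were grouped after the values had been seen, apart from the transferases. GSTU4 led the transferases, at 3.28, 1.65 and 0.44 FPKM in mock and 22.6, 23.5 and 17.1 FPKM in treated libraries. Of 140 tested cytochrome P450 genes, a large family of oxidases also grouped afterwards, 18 rose and 3 fell. The risers were 10 without hrcC 1 or mock 2 and 11 without hrcC 2 or mock 3, and 1 fell without hrcC 1, hrcC 3, mock 1 or mock 2. CYP81D1 was at 1.46, 1.92 and 0.80 FPKM in mock and 21.8, 22.7 and 20.9 FPKM in treated libraries, and CYP81D11, a detoxification P450 of higher level, went from 48.4, 36.6 and 20.04 FPKM to 237, 161 and 127 FPKM. They were among 4 that rose of 43 in the CYP71 and CYP81 families, where none fell. GDSL lipases went both ways, with 5 that rose and 5 that fell of 41. The fallers were 1 without mock 2, 2 without hrcC 1 and 3 without hrcC 3, mock 1 or mock 3. The steepest fall was that of AT3G16370, from 71.3, 92.3 and 89.8 FPKM to 25.9, 38.2 and 28.1 FPKM, and its call was lost without Atg3bp1 hrcC replicate 1 (adjusted p = 0.0628). Other steep increases had no list. AT1G14250, a GDA1/CD39 nucleoside phosphatase, rose with a log2 fold change of 5.64, AT1G73325, a Kunitz-type protease inhibitor, of 5.25, and AT2G43530, a knottin-type peptide, of 5.09.

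Genes of microbe-triggered immunity responded in part. Of 20 tested, 5 rose, none fell and 15 did not pass, with a median log2 fold change of 0.58. In 12 of the 20 every treated library lay above every mock library, and in 1 below, against 9.98% and 17.1% of tested genes. WRKY40, a WRKY factor induced early by bacterial patterns, went from 1.5, 2.48 and 3.24 FPKM to 12, 7.9 and 15.9 FPKM (log2 1.95, SE 0.31, adjusted p = 0.0027). WRKY33, a regulator of camalexin and defence against necrotrophs, PROPEP3, the precursor of a danger peptide, WAK1, a wall-associated kinase, and EFR, the receptor of elongation factor Tu, had log2 fold changes of 1.29, 1.4, 1.37 and 0.76. Each of these 4 calls was lost when some libraries were left out, so that the list had 1 riser without hrcC 3 or mock 3, 2 without hrcC 1 or hrcC 2 and 3 without mock 1 or mock 2. The adjusted p reached 0.0734 for WRKY33, 0.0926 for PROPEP3 and 0.143 for EFR without Atg3bp1 hrcC replicate 3, and 0.176 for WAK1 without Atg3bp1 mock replicate 3. AZI1, a lipid-transfer protein of systemic immunity, was at 62.2, 47.9 and 20.6 FPKM in mock and 240.1, 92.4 and 116 FPKM in treated libraries. Its treated libraries all lay above the mock libraries, but the difference did not pass (log2 1.81, SE 0.70, adjusted p = 0.23). WRKY29, a marker of flagellin signalling, was at 5.37, 4.04 and 1.07 FPKM in mock and 1.89, 1.98 and 2.43 FPKM in treated libraries, with overlapping groups. FRK1, another such marker, was below the filter, a mean of 1 FPKM over the 12 libraries, and was not tested. It was at 0.305, 0.174 and 0.205 FPKM in mock and 2.1, 1.64 and 1.93 FPKM in treated libraries. WRKY8 was also below the filter, at 0.71, 0.417 and 0.533 FPKM in mock and 1.87, 1.09 and 0.839 FPKM in treated libraries. Of all 48 tested WRKY factors 5 rose, and none fell. There were 2 risers without hrcC 1, hrcC 3 or mock 3 and 3 without hrcC 2 or mock 2. Among 22 tested cysteine-rich receptor-like kinases, a family often induced by bacteria, 1 rose, EP1, from 1.52, 3.11 and 1.549 FPKM to 11, 13 and 14 FPKM. There were 2 without hrcC 2, mock 1, WT hrcC 1 or WT hrcC 3 and 3 without WT mock 1.

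Calls among SA genes were confined to the output list. None of 7 tested genes of SA synthesis and its regulators passed, and their median log2 fold change was 0.30. In 3 of the 7 every treated library lay above every mock library, and in 1 below, against 9.98% and 17.1% of tested genes. ICS1, the isochorismate synthase of SA synthesis, was at 0.945, 1.01 and 1.1 FPKM in mock and 1.39, 1.1 and 1.06 FPKM in treated libraries, and CBP60g, its transcriptional activator, at 2.64, 3.0 and 1.54 FPKM in mock and 3.64, 2.14 and 3.41 FPKM in treated libraries. The groups overlapped in both. EDS1 and PAD4, a lipase-like pair that signals upstream of SA, had log2 fold changes of -0.19 and 0.11, and EDS5, the SA precursor exporter, of 0.49 (adjusted p = 0.22). SARD1, NIMIN1 and WRKY38 did not reach the filter. The highest library was at 0.390 FPKM for SARD1, 1.79 FPKM for NIMIN1 and 0.331 FPKM for WRKY38. In the output list 2 of 11 tested genes rose, against 3.02% of all tested genes. PR2, a beta-glucanase, went from 0.884, 1.17 and 0.366 FPKM to 12.6, 25.3 and 4.35 FPKM (log2 2.87, SE 0.42, adjusted p = 0.0017), and WRKY18 from 2.86, 3.16 and 2.87 FPKM to 16.1, 15.3 and 15.8 FPKM. PR1, the usual SA marker, varied widely, at 8.63, 0.607 and 0.711 FPKM in mock and 10.2, 73.8 and 2.06 FPKM in treated libraries. Its groups overlapped and it did not pass (log2 2.24, SE 0.91, adjusted p = 0.26). SA turnover had no call among 5 tested genes. UGT74F2, an SA glucosyltransferase, was at 65.8, 57.9 and 48.3 FPKM in mock and 134, 102 and 76.8 FPKM in treated libraries.

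Stress hormone outputs outside JA and SA were mostly not called. Of 17 tested genes of abscisic acid, dehydration and cold, 2 rose, RD20, a caleosin of lipid bodies, 8.82-fold, and ANAC072, also named RD26, 2.35-fold. ANAC072 belongs with ANAC019 and ANAC055 to a small group of NAC factors that act downstream of MYC2 and counteract SA accumulation. All of them rose. ANAC019 was at 0.191, 0.256 and 0.0823 FPKM in mock and 6.8, 3.27 and 9.39 FPKM in treated libraries, ANAC055 at 2.83, 1.83 and 1.57 FPKM in mock and 16, 16.4 and 14.2 FPKM in treated libraries, and ANAC072 at 15.3, 11.4 and 15.3 FPKM in mock and 38.4, 34.1 and 27.6 FPKM in treated libraries. Flavonoid synthesis had no call among 13 tested genes, although its median log2 fold change was 0.84. With 1 library left out, up to 4 of them rose. In 7 of the 13 every treated library lay above every mock library, and in 1 below, against 9.98% and 17.1% of tested genes. TT4, the chalcone synthase at its entry, was at 160.5, 228 and 129 FPKM in mock and 157, 153 and 119.8 FPKM in treated libraries. Phenylpropanoid and lignin synthesis had none among 16, with a median of -0.24.

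**Figure D3:**
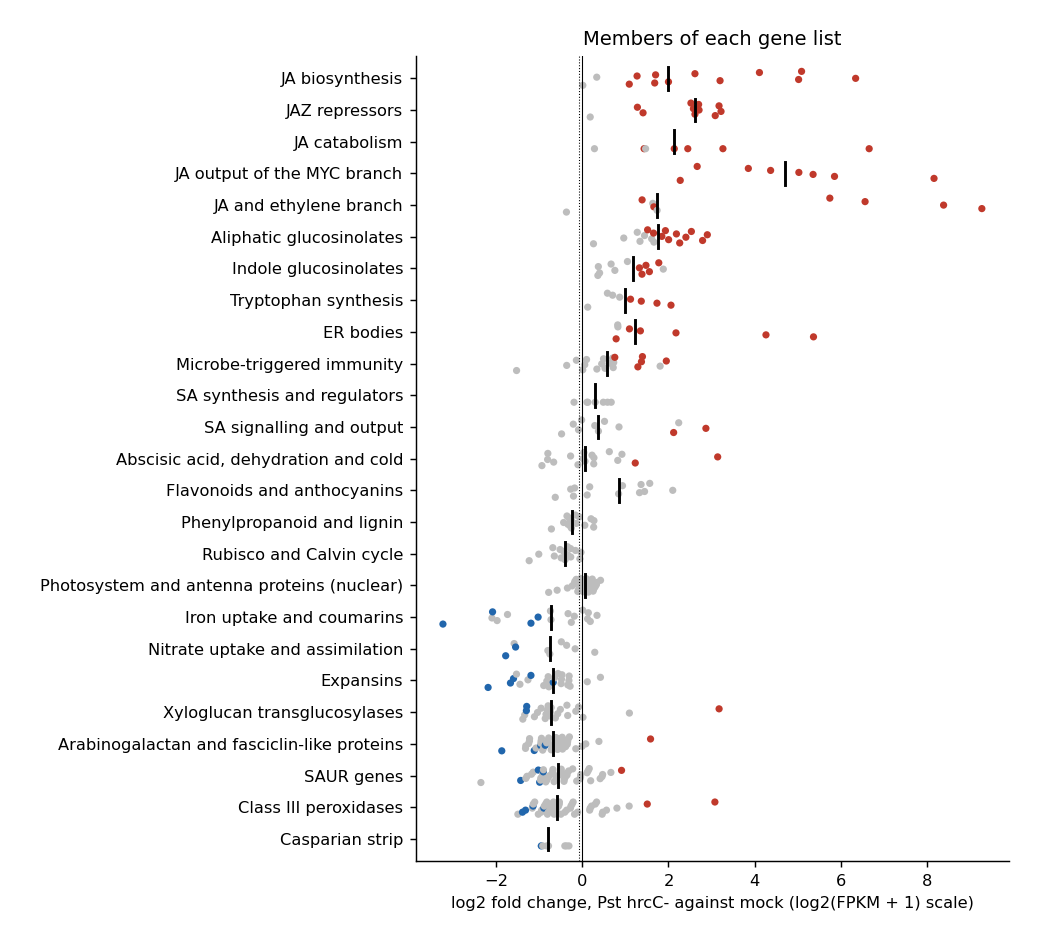
Log2 fold change of every tested member of 25 gene lists in the libraries labelled Atg3bp1, with members that rose in red, fell in blue and did not pass in grey. Black bars are list medians and the dotted line is the median of all tested genes (-0.07). The JA, glucosinolate and ER body lists lie to the right and the iron, nitrate and cell wall lists to the left.

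Cell wall loosening and growth genes were among those that fell. Expansins, which loosen the wall without cutting it, fell in 5 of 23 tested cases and rose in none, with a median of -0.67. EXPA11 was at 19.9, 18.3 and 17.1 FPKM in mock and 2.38, 4.0 and 3.51 FPKM in treated libraries. Both groups were narrow and far apart (log2 -2.18, SE 0.23, adjusted p = 1.5e-04). EXPA1, the most abundant of those called, went from 128, 109 and 131 FPKM to 44, 43.1 and 31.1 FPKM, and EXLA2 from 13.1, 13.1 and 13.8 FPKM to 3.14, 3.34 and 3.97 FPKM. EXPA14 and EXPA6 fell by 1.19 and 0.67 on the log2 scale, and both calls were lost without single libraries (adjusted p up to 0.0878 without Atg3bp1 mock replicate 2 and 0.212 without Atg3bp1 hrcC replicate 1). The fallers were 3 without hrcC 1, hrcC 3 or mock 2, and 9 without WT mock 1. Xyloglucan transglucosylases, which cut and rejoin the wall's tethers, fell in 2 cases, rose in 1 and did not pass in 21. Of these, 1 fell without hrcC 1, hrcC 3, mock 1 or mock 2, and 4 fell without mock 3, WT hrcC 1 or WT mock 1. XTH8 went from 19.98, 14.5 and 11.8 FPKM to 5.26, 7.25 and 4.3 FPKM, and XTH17 fell by 1.29 on the log2 scale. The XTH17 call was lost in 4 of the 12 fits that left out 1 library (adjusted p up to 0.0932, without Atg3bp1 hrcC replicate 3). XTH25 moved the other way, from 1.52, 1.86 and 1.66 FPKM to 24, 27.1 and 17.1 FPKM.

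GASA6, a small secreted peptide that is induced by gibberellin, was the most abundant of the 6 genes that fell over 4-fold. It was at 139, 118 and 186 FPKM in mock libraries and 24.8, 37 and 15.1 FPKM after Pst hrcC- (log2 -2.51, SE 0.30, adjusted p = 3.6e-04). It was the sole call among 5 tested GASA genes, of which 2 fell without mock 1, WT hrcC 1, WT mock 1 or WT mock 3. Of 48 SAUR genes, a family of small proteins induced by auxin and linked to cell expansion, 4 fell and 1 rose, with a median of -0.57. SAUR26 and SAUR68 fell by 1.42 and 1.02. Their calls were lost in 6 and 9 of the 12 fits that left out 1 library. The adjusted p reached 0.138 and 0.211, both without Atg3bp1 hrcC replicate 3. No SAUR gene fell without hrcC 3, mock 1 or mock 2, and 1 fell without hrcC 1, hrcC 2 or mock 3. The riser, AT1G56150, was lost without any one of the libraries labelled Atg3bp1 and without WT hrcC 2, WT hrcC 3 or WT mock 2. Arabinogalactan and fasciclin-like proteins, glycoproteins of the cell surface, fell in 4 of 41 cases and rose in 1. AGP30, a root arabinogalactan protein, went from 4.03, 5.32 and 3.44 FPKM to 0.624, 0.76 and 0.0898 FPKM, and FLA9 from 228, 219 and 203 FPKM to 99.8, 121 and 76.3 FPKM. The FLA9 call was lost in 5 of the 12 fits that left out 1 library (adjusted p up to 0.126, without Atg3bp1 hrcC replicate 3). That of AGP30 was lost without Atg3bp1 mock replicate 2 (adjusted p = 0.0501). Of the family, none fell without mock 2, 1 fell without hrcC 1, hrcC 3 or mock 1, 2 without mock 3 and 9 without WT hrcC 1 or WT hrcC 2. The riser was AGP5, at 3.35, 4.04 and 2.09 FPKM in mock and 11.6, 10.8 and 10.2 FPKM in treated libraries. Lists of growth hormones and of cell division had no call. None of 6 tested genes of brassinosteroid synthesis, 3 of gibberellin synthesis and turnover, 4 PRE factors, 22 Aux/IAA repressors or 20 core cell cycle genes passed. ARR6, a response regulator that damps cytokinin signalling, fell by 1.31, from 7.71, 7.78 and 5.88 FPKM to 2.41, 2.55 and 1.8 FPKM, and the transcription factor bZIP44 by 1.26. Both were named after their values had been seen.

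Secreted lipid and barrier proteins formed another falling group, which was gathered after the values had been seen. Of 52 tested proteins annotated as bifunctional inhibitor and lipid-transfer proteins, 11 fell and 2 rose, with a median of -0.76. The fallers were 4 without mock 2, 5 without hrcC 1 or mock 1 and 6 without hrcC 3, and 4 rose without WT hrcC 3. AT5G46890 went from 105, 92.6 and 50.2 FPKM to 15.7, 27.6 and 22.1 FPKM, and its neighbour AT5G46900 from 82.4, 86 and 43.9 FPKM to 16, 26 and 20.02 FPKM. AT5G13900 and AT1G73780 fell by 1.86 and 1.97 on the log2 scale, the second call being lost without Atg3bp1 mock replicate 2 (adjusted p = 0.0774). The risers were AT4G22610, at 2.54 and 46.1 FPKM on average, and AT4G12545. Of 25 tested genes of suberin and cutin, the lipid polymers that seal roots and shoots, 5 fell and none rose. No gene fell without hrcC 1, and 1 fell without hrcC 3, mock 1 or mock 2. The 5 were GPAT8, GPAT3, CYP86B1, DCF and the exporter ABCG6, with log2 fold changes between -1.17 and -1.01. GPAT8, an acyltransferase of cutin, went from 8.11, 7.65 and 8.02 FPKM to 3.16, 4.08 and 2.97 FPKM, and its call was lost without Atg3bp1 hrcC replicate 1 (adjusted p = 0.0565). The call of CYP86B1, a very-long-chain hydroxylase of suberin, was lost without Atg3bp1 mock replicate 1 (adjusted p = 0.0789), and those of ABCG6, GPAT3 and DCF were lost without Atg3bp1 hrcC replicate 3 (adjusted p = 0.172, 0.103 and 0.099). In the Casparian strip, the barrier of the root endodermis, 1 of 7 tested genes fell. This was CASP2, from 10.5, 9.75 and 7.79 FPKM to 3.5, 4.79 and 4.52 FPKM, and its call was lost without any one of the libraries labelled Atg3bp1 (adjusted p up to 0.157, without Atg3bp1 hrcC replicate 1).

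Markers of root and shoot cell types were read beside these groups. The 4 endodermis markers CASP1 to CASP4 summed to between 23.2 and 44 FPKM in mock and between 12.2 and 21.4 FPKM in treated libraries, without overlap, and 1 of 4 fell. The 3 guard cell markers, MYB60, KAT1 and HT1, summed to between 9.97 and 13.5 FPKM in mock and between 5.86 and 8.22 FPKM in treated libraries, also without overlap, and none passed. The sums overlapped for the 4 root hair markers (5.43 to 18.2 against 6.12 to 9.51 FPKM), the 4 xylem markers (30.2 to 41.8 against 21.1 to 31.0 FPKM), the 3 phloem companion cell markers (32.8 to 48.1 against 32.7 to 41.7 FPKM) the 4 root tip markers (2.44 to 3.66 against 2.44 to 3.98 FPKM) and the 4 trichome markers (1.73 to 3.85 against 1.27 to 2.0 FPKM). None of the tested markers among these passed. The filter left 3 of 4 xylem markers, 1 of 4 root tip markers and 1 of 4 trichome markers to be tested. No marker but 1 of the seed storage list was at 0 in all 6 libraries. The part of cell composition in the falling genes was not tested. Peroxidases of the secreted plant family fell in 4 and rose in 2 of 49 tested cases. None fell without hrcC 1, mock 1 or mock 2 and 1 fell without hrcC 3, and 1 rose without any one of the libraries labelled Atg3bp1, WT hrcC 1 or WT hrcC 2. AT3G01190 went from 68.9, 59.9 and 36.3 FPKM to 15.8, 30.5 and 14.9 FPKM, whereas AT1G49570 rose from 1.12, 0.439 and 0.807 FPKM to 14.2, 13.3 and 12.5 FPKM. The AT3G01190 call was lost in 4 of the 12 fits that left out 1 library (adjusted p up to 0.128, without Atg3bp1 hrcC replicate 1).

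Iron uptake genes fell and none rose, with 4 of 17 tested members called and a median of -0.72. FIT, the bHLH factor that controls iron uptake in the root epidermis, was at 4.36, 5.43 and 3.98 FPKM in mock and 1.33, 1.51 and 1.44 FPKM in treated libraries (log2 -1.19, SE 0.19, adjusted p = 0.0033). AHA2, the root proton pump that acidifies the soil around the root, went from 31.4, 44.2 and 30.1 FPKM to 16.5, 16.3 and 15.9 FPKM. CYP82C4, a P450 of the coumarin siderophore pathway, was the steepest fall among called genes, from 20.03, 35.4 and 6.78 FPKM to 0.962, 0.826 and 1.04 FPKM (log2 -3.23, SE 0.72, adjusted p = 0.026). NAS2, a nicotianamine synthase, went from 6.3, 7.11 and 3.08 FPKM to 0.691, 0.705 and 0.172 FPKM. Mock replicate 3 was the lowest mock library for both, and both calls were lost when a library was left out (adjusted p = 0.127 and 0.155 without Atg3bp1 mock replicate 2), as was that of AHA2 without the same library (adjusted p = 0.0522). Iron genes that fell were 1 without mock 2 and 2 without mock 1 or any one of the hrcC libraries. IRT1, the iron transporter itself, was at 42.4, 85.5 and 36.2 FPKM in mock and 7.03, 10.2 and 18 FPKM in treated libraries, and FRO2, the ferric reductase, at 7.84, 19.9 and 4.68 FPKM in mock and 1.054, 1.14 and 2.83 FPKM in treated libraries. Their groups did not overlap, but the spread among mock libraries was wide and neither passed (adjusted p = 0.13 and 0.18). The bHLH partners of FIT did not pass. BHLH38 was at 2.51, 9.48 and 2.2 FPKM in mock and 0.431, 8.2 and 4.01 FPKM in treated libraries, and the log2 fold changes of BHLH39, BHLH100 and BHLH101 were 0.13, 0.19 and 0.34. None of 12 tested genes of iron status and storage passed, and FER1, a ferritin, was at 46.2, 38.5 and 18.3 FPKM in mock and 35.1, 10.6 and 12.9 FPKM in treated libraries.

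Nitrate assimilation fell at its entry steps. NIA1, a nitrate reductase, went from 28.2, 22.6 and 17.9 FPKM to 6.28, 6.88 and 4.44 FPKM (log2 -1.77, SE 0.30, adjusted p = 0.0049), and NIR1, the nitrite reductase that follows, from 55.4, 65.1 and 50.6 FPKM to 25.5, 17.7 and 13.8 FPKM. The NIR1 call was lost without Atg3bp1 hrcC replicate 3 (adjusted p = 0.0677). NIA2, the second nitrate reductase, had a log2 fold change of -1.58 and did not pass (adjusted p = 0.072). In all, 2 of 9 tested members fell and none rose, with 1 without hrcC 2, hrcC 3 or mock 2, and the nitrate transporters NRT1.1 and NRT3.1 had log2 fold changes of 0.29 and -0.16. Outside the list, the ammonium transporter AMT1;3 fell by 1.46 on the log2 scale (a call lost without Atg3bp1 hrcC replicate 3, adjusted p = 0.0765), the asparagine synthetase ASN2 fell by 1.054, and UMAMIT14, a membrane carrier that exports amino acids, fell by 1.94. The first 2 were named after their values had been seen. UMAMIT14 was at 4.9, 7.14 and 6.6 FPKM in mock and 0.841, 1.09 and 0.717 FPKM in treated libraries. None of 5 tested phosphate starvation genes passed, with PHT1;1, a phosphate transporter, at 32.4, 29.2 and 19 FPKM in mock and 17.2, 22.1 and 15 FPKM in treated libraries.

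**Figure D4:**
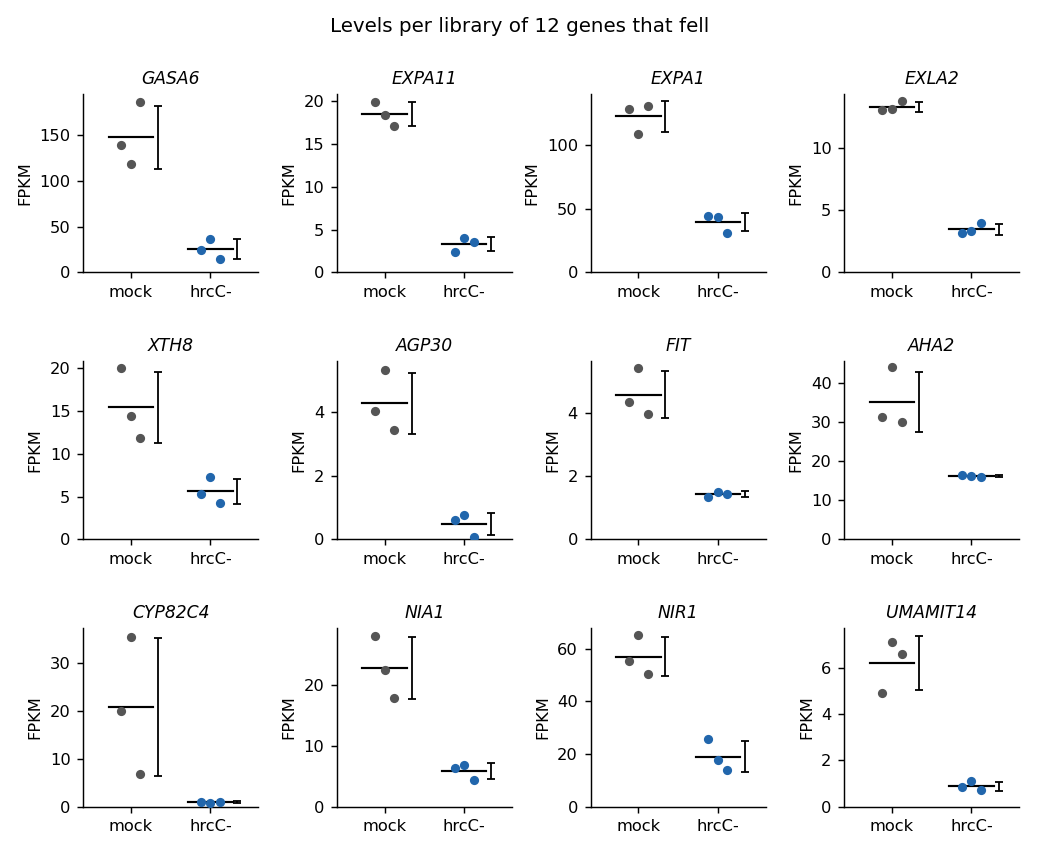
FPKM of 12 falling genes in each library labelled Atg3bp1 (points, mock grey and Pst hrcC- blue), with the group mean (line) and its SD to the right (n = 3). Treated libraries lie below mock libraries in each panel, and the mock libraries of CYP82C4 range from 6.78 to 35.4 FPKM.

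The other steeply falling genes had no common role in the annotation. AT2G41990, a late embryogenesis abundant protein, went from 5.93, 5.83 and 6.58 FPKM to 1.12, 0.775 and 1.01 FPKM, and AT4G09110, a RING/U-box protein, fell by 1.92. The uncharacterized AT1G68238, AT1G65490 and AT1G53610 fell by 1.85, 1.78 and 2.37, and these 3 calls were lost when libraries were left out (adjusted p = 0.0659 and 0.157 without Atg3bp1 hrcC replicate 1, and 0.134 without Atg3bp1 hrcC replicate 3). AT4G22750, a DHHC-type zinc finger protein, was at 4.65, 4.38 and 3.57 FPKM in mock and below 0.0001 FPKM in each treated library. Its value is uncertain, since AT4G22753, listed next to it, may share its reads. DGR2, a cell wall protein named after its values had been seen, fell from 91.8, 114 and 114 FPKM to 30.3, 37.8 and 28.9 FPKM.

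Photosynthesis and translation genes had 1 call, of a ribosomal protein gene, but many Calvin cycle and ribosomal protein genes were lower in all treated libraries than in any mock library. None of 46 nuclear photosystem and antenna genes passed, with a median log2 fold change of 0.07. None of 16 Rubisco and Calvin cycle genes passed, with a median of -0.39. All 16 had log2 fold changes below 0, and 10 had treated libraries that all lay below the mock libraries, against 17.1% of tested genes. RBCS1A, a small subunit of Rubisco, was at 9427, 10103 and 10479 FPKM in mock and 8127, 7096 and 6586 FPKM in treated libraries. The groups of RBCS1A did not overlap, but the difference did not pass (log2 -0.43, SE 0.25, adjusted p = 0.48). This SE draws on the spread within all 4 groups, those labelled WT included. Chlorophyll synthesis had no call among 12 tested genes, with a median of -0.08. In chlorophyll breakdown, a list added after the values had been seen, 3 of 7 rose, and 1 without hrcC 1, hrcC 3 or mock 2. Besides CLH1 these were ACD1, the oxygenase that opens the ring, and PPH, the pheophytinase, with 2.29-fold and 2.09-fold. The calls of ACD1 and PPH were lost without Atg3bp1 hrcC replicate 1 (adjusted p = 0.0826 and 0.0835). Of 314 ribosomal protein genes 1 fell, AT3G16780, by 0.83 on the log2 scale (lost without Atg3bp1 mock replicate 2, adjusted p = 0.0622), and the median over all was -0.34. In 156 of the 314 every treated library lay below every mock library, and the summed level went from between 30211 and 31952 FPKM to between 22427 and 26071 FPKM without overlap. Fallers were 0 without hrcC 3 or mock 2, 2 without WT hrcC 1 or WT mock 3 and 3 without WT mock 1. No clock gene of 12 and none of 8 genes of dark and sugar starvation passed. The same held for 20 aquaporins (median -0.24), 8 root hair genes (median -0.37) and 3 small heat shock proteins.

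The same contrast in the libraries labelled WT was set beside these values. Of the 441 genes higher in the libraries labelled Atg3bp1, 440 had a log2 fold change above 0 in those labelled WT, and 366 also passed there. For these genes the median log2 fold change was 1.69 under the label Atg3bp1 and 1.64 under the label WT. Of the 95 lower genes, 92 were below 0 under the label WT, 27 passed there, and the medians were -1.31 and -0.78. The genes were chosen by their values under the label Atg3bp1, so a smaller median under the other label carries no test. The difference itself was tested as an interaction of label and treatment, and no gene passed in limma (smallest adjusted p = 0.99, with 755 of 17158 genes at an unadjusted p under 0.05). EXLA2 and NIA1 fell by 1.66 and 1.77 under the label Atg3bp1 and had log2 fold changes of -0.58 and -0.66 under the label WT. Their interactions were -1.08 (SE 0.43) and -1.11 (SE 0.43). For the called iron genes the log2 fold changes under the labels Atg3bp1 and WT were -1.19 and -1.09 for FIT, -3.23 and -3.21 for CYP82C4, -1.02 and -0.87 for AHA2 and -2.08 and -3.52 for NAS2. The interaction of NAS2 was 1.44 (SE 0.70). A p that misses the threshold does not show that both responses were equal.

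**Figure D5:**
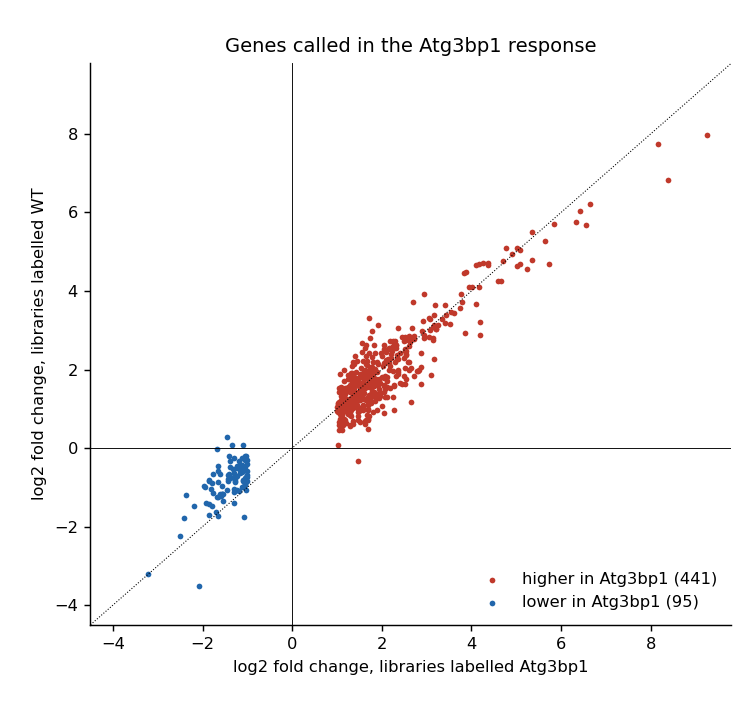
Log2 fold change after Pst hrcC- in the libraries labelled WT (vertical) against those labelled Atg3bp1 (horizontal) for the 441 genes called higher (red) and the 95 called lower (blue) under the label Atg3bp1. The dotted line marks equal values. Of the red points 440 and of the blue points 92 have the same sign under both labels.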

How the data were processed

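RNA-seq libraries of 14-d-old whole seedlings, 3 for each of 4 label groups, were sequenced by the authors as stranded paired-end mRNA libraries. Per the methods and the labels, reads were trimmed with Trimmomatic, aligned with TopHat to TAIR10 and its annotation, and summarised with Cufflinks, with quartile normalization in CuffDiff. The deposited values are FPKM per gene and library, without read counts, so depth is unknown and no interval from counts is given.

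FPKM were scaled to 1 upper quartile, and log2(FPKM + 1) was fitted for 17158 of 27371 listed genes, those averaging 1 FPKM or more across the 12 libraries, with limma 3.58.1 (R 4.3.3) on 4 groups, with a trended prior and Benjamini-Hochberg adjustment over all tested genes. A gene rose or fell at an adjusted p of at most 0.05, and counts at 2-fold also needed a log2 fold change of at least 1. The p-values measure the spread between these libraries. The fit was tested on simulated data.

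The gene lists and the comparison were chosen with earlier results of these data known. Of the lists, 53 were set up from textbook pathways and 11 were added after the values had been seen, as said beside them. The rule for named genes took the 15 largest increases and the 15 largest decreases whose libraries did not overlap, up to 4 called members of each list in each direction (or, with no call, its most abundant member), and the markers the study names. Others are said in the text to have been named after their values had been seen, or appear as further members of a list. The targeted gene went against the labels, which were kept. Gene names, positions and start sequences came from the RefSeq annotation of TAIR10.1, which held 26703 of the listed loci. Alternatives were other scalings, pseudocounts, filters, priors and samples, a replicate block and leaving out each library.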

Additional observations from a re-analysis of the deposited data

How the results depend on the processing

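The 2-fold counts of 441 higher and 95 lower genes were 418 and 99 with the replicate block. The deviations of mock and hrcC libraries with the same number correlated at -0.152, -0.158 and 0.17. Those of libraries with different numbers correlated at -0.319 to 0.437. With 3 libraries in each group these values cannot show whether the numbers pair the libraries. With other scalings the counts lay between 420 and 485 higher and between 75 and 108 lower. The median-ratio scaling moved the median of all genes from -0.07 to 0.00. With the libraries labelled Atg3bp1 fitted alone, 171 genes were lower at 2-fold, and at any size 889 rose and 596 fell. With a term for libraries of high scaling factor, 152 were lower at 2-fold and 384 fell at any size. The libraries with this term were WT mock 2, WT mock 3 and WT hrcC 1, and none was labelled Atg3bp1. The median log2 fold change under the label Atg3bp1 stayed at -0.07. The term could therefore change the calls, but it is no check of scaling in the libraries compared. Without adjustment of p, 214 were lower at 2-fold, 1223 rose and 1366 fell at any size, and 755 passed the interaction, against 0 in each other alternative that holds it (the fit of the libraries labelled Atg3bp1 alone has none). Leaving out 1 library gave 39 to 127 genes lower at 2-fold, 319 to 625 that rose and 48 to 268 that fell. PAD4, not past the test, lay between -0.00026 and 0.25 on the log2 scale when 1 library was left out. The cause of these shifts was not tested. Of 221 called genes followed singly, 125 kept their call in every alternative, 104 of 153 risers and 21 of 68 fallers. FPKM carry no read counts, so how far depth limits the low genes is unknown.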
